A study of Mus musculus with 8 samples.

Results

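Hair differentiation transcription factors are the DNA-binding regulators and cofactors that act while cells of the hair matrix become hair shaft and sheath. The set described here was chosen by name and holds 10 genes of the 46983 in the count table: Foxn1, Foxe1 and Foxq1 (forkhead factors), Msx1, Msx2, Dlx1, Dlx2 and Dlx3 (homeodomain factors), Vdr (the vitamin D receptor) and Hr (Hairless, a corepressor that binds that receptor). All 10 were among the 15638 genes that passed the filter on low counts. RNA of the tail epidermis was sequenced from 8 mice aged 8 weeks, 1 library per mouse. The 4 KO mice (called SKO in the design text) had the genotype K14-Cre/+ Ppp1r8 fl/-, and the 4 CTR mice had the genotype K14-Cre/+ Ppp1r8 fl/+. The Cre transgene is Tg(KRT14-cre)1Amc/J, the Ppp1r8 alleles in the strain name are tm1Ave and tm1.1Itl, and Ppp1r8 encodes NIPP1, a nuclear protein that binds and regulates the phosphatase PP1. Both groups therefore carried the Cre transgene, which the keratin 14 promoter drives in basal keratinocytes and their descendants, hair follicles included. CTR mice were not free of the targeted allele, since their keratinocytes would keep 1 wild-type copy after recombination, and the null allele of KO mice is present in every cell.

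In a growing follicle, matrix cells around the dermal papilla divide, leave the cycle and form the inner root sheath and the cortex, cuticle and medulla of the shaft. BMP and Wnt signals act on these precursors, and factors such as MSX2, FOXN1, DLX3 and HOXC13 then act on hair keratin and keratin-associated protein genes. In mice, loss of Foxn1 gives the nude coat, loss of Foxq1 gives the satin coat with a defective medulla, and loss of Hr or Vdr lets the first coat form but not the later ones. The 8 forkhead and homeodomain genes were lower in KO epidermis, to between 27.6% and 62.3% of the CTR mean, while Hr and Vdr did not differ detectably.

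Promoters of 6 of the 10 genes were found in the RefSeq table (GRCm38.p6, 250 bases before to 50 after the annotated start). They are shown for Foxn1 and Msx2, because these fell and their windows hold a homeodomain core motif, and for Vdr, the only gene with a promoter in the table that did not change. Sequences run 5′ to 3′ on the gene's strand, and capitals mark matches on either strand to the 9 motifs spelled out after the sequences. The Foxn1 window is chr11:78386559-78386858, minus strand, and lies wholly upstream of the span that GENCODE gives Foxn1. The Msx2 window is chr13:53472731-53473030, minus strand, and lies inside the span that GENCODE gives Msx2. Distances from the start are thus from the start in the RefSeq table. The Vdr window is chr15:97908247-97908546, minus strand, and lies inside the span that GENCODE gives Vdr, whose outermost start is farther upstream. All gene positions are on GRCm38.
Foxn1: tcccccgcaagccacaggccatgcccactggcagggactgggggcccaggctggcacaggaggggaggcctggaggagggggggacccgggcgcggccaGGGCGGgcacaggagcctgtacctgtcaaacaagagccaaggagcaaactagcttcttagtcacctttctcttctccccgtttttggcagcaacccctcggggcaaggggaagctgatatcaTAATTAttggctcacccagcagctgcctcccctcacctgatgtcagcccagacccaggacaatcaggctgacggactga
Msx2: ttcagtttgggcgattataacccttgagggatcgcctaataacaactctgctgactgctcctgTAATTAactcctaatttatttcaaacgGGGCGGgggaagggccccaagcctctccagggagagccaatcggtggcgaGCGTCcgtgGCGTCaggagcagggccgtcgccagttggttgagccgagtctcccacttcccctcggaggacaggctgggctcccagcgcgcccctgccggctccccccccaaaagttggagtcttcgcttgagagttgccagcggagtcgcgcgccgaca
Vdr: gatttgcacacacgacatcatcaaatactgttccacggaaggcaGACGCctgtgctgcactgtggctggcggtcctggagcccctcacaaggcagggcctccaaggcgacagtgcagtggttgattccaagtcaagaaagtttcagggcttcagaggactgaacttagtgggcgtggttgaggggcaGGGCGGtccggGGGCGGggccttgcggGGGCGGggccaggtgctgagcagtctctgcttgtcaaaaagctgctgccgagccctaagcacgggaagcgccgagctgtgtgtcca
The homeodomain core TAATTA was found in 2 of 6 windows, Foxn1 (29 bases before the start) and Msx2 (187 bases before it), and in 5.29% of 32851 promoters in the table. GACGC, the core that FOXN1 binds, was found in 3 of 6 windows (Dlx1, Msx2 and Vdr), and in 27.2% of all promoters. The GC box GGGCGG was in 6 of 6 windows and in 35.7% of all promoters. AGGTCA, a hexamer that nuclear receptors bind, was in the Dlx1 window alone and in 16.3% of all promoters. The other 5 motifs were in 0 of 6 windows. Of these the homeodomain variant TAATTG was in 8.00% of all promoters and the forkhead core TGTTTAC in 3.65%. The LEF/TCF motif CTTTGAT was in 3.73%, the SOX motif CTTTGTT in 5.85% and the TATA box TATAAA in 13.6%. GC made up 62.7%, 61.0% and 61.3% of the Foxn1, Msx2 and Vdr windows and a median of 52.7% of all promoters. TAATTA and TAATTG share a core, and a motif read on the other strand counts as a match. A match is a run of letters and not a measured binding site.

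The libraries held 18649079 to 20500885 counts in KO and 16696212 to 21571935 in CTR. The totals did not pass a two-sided exact permutation test (p = 0.8, n = 4 each, where 0.0286 is the smallest p possible). Levels are given as CPM (normalised counts scaled to a common library size), in which 3 counts, taken as the floor of detection, were 0.139 to 0.18 CPM. Basal keratin and adhesion genes of keratinocytes marked the tissue, with a summed level of that list of 16351 to 17129 CPM in KO and 17214 to 19346 CPM in CTR. Of its 7 genes 4 fell, namely Itgb4, Krt15, Col17a1 and Itga6. Krt5, Krt14 and Lamb3 did not pass the threshold (edgeR adjusted p = 0.552, 0.485 and 0.746). Ppp1r8 itself had 28.4 to 47.4 CPM in KO and 34.7 to 41.6 CPM in CTR (log2 fold change -0.06, SE 0.14). The labels do not say which part of the gene Cre removes, so this value does not check the genotype. Of 15638 genes tested with edgeR's quasi-likelihood test, 23.7% changed at an adjusted p under 0.05, with 12.2% lower and 11.5% higher in KO. The labels do not say whether the mice were littermates or of which sex they were.

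**Figure D1:**
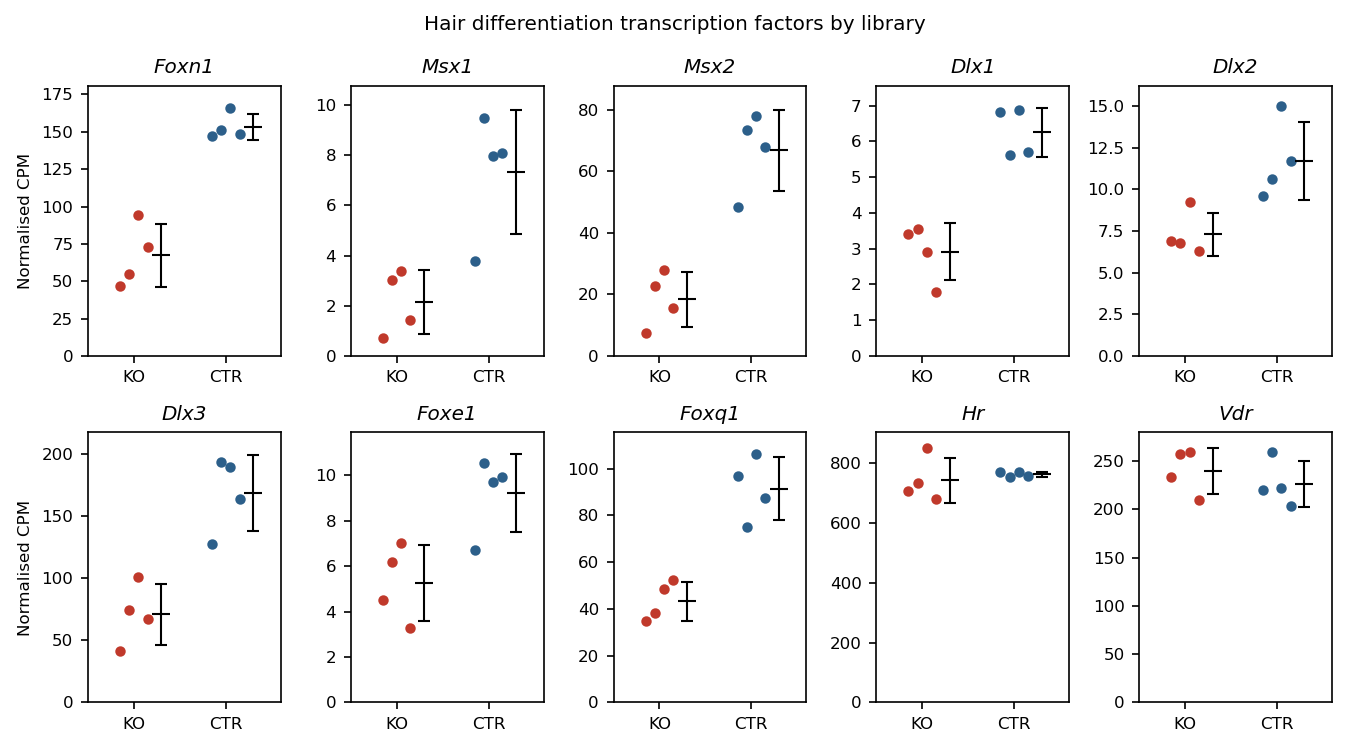
Normalised CPM of the 10 genes, 1 panel per gene with its own axis from 0. Points are libraries, with 4 KO mice at the left and 4 CTR mice at the right of each panel, and bars are means with SD. Every KO point lies below every CTR point for Foxn1, Msx1, Msx2, Dlx1, Dlx2, Dlx3 and Foxq1, 1 KO point passes the lowest CTR point for Foxe1, and the groups overlap for Hr and Vdr.

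MSX1 and MSX2 are homeodomain factors that act close to BMP signals, and in mice Msx2 is needed for shaft differentiation and for Foxn1 expression in the matrix. Their estimated fold changes were larger than those of the other 8 genes. Msx2 (ENSMUSG00000021469.9, chr13:53466884-53473074) had 7.55, 22.7, 28.1 and 15.5 CPM in KO 1 to 4, against 48.3, 73.3, 78.1 and 67.8 CPM in CTR 1 to 4. The highest KO library was thus below the lowest CTR library. The mean was 18.5 ± 8.91 CPM in KO and 66.9 ± 13.1 CPM in CTR (SD, n = 4 each), which is 3.62-fold lower (log2 fold change -1.86, SE 0.32, edgeR adjusted p = 0.00387). Msx1 (ENSMUSG00000048450.10, chr5:37820485-37824583) was rarer, with 0.734, 3.03, 3.41 and 1.43 CPM in KO 1 to 4, against 3.79, 9.48, 7.98 and 8.10 CPM in CTR 1 to 4. The groups came close to each other only between KO 3 and CTR 1. Its log2 fold change was -1.76 (SE 0.42, edgeR adjusted p = 0.0146). It rests on 14 to 68 counts per KO library and 74 to 197 counts per CTR library. The ratio of Msx2 to Msx1 was 9.21 ± 1.61 in KO and 9.66 ± 2.23 in CTR (SD, n = 4 each, CPM ratio), and the KO libraries ranked in the same order for both genes.

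Dlx3 (ENSMUSG00000001510.8, chr11:95120119-95125296) encodes a homeodomain factor without which the hair matrix of mice makes neither shaft nor inner root sheath. It had 41.8, 74.1, 100.9 and 67.1 CPM in KO 1 to 4, against 127, 194, 190 and 164 CPM in CTR 1 to 4. The groups did not overlap, and the log2 fold change was -1.25 (SE 0.23, edgeR adjusted p = 0.00486). The neighbouring genes Dlx1 (ENSMUSG00000041911.3, chr2:71528113-71533981) and Dlx2 (ENSMUSG00000023391.8, chr2:71543408-71546754), known chiefly from forebrain and jaw development, were at far lower counts. Dlx1 had 3.41, 3.54, 2.90 and 1.80 CPM in KO 1 to 4, against 6.81, 5.63, 6.87 and 5.70 CPM in CTR 1 to 4, a log2 fold change of -1.10 (SE 0.21, edgeR adjusted p = 0.00526). Dlx2 had 6.87, 6.78, 9.22 and 6.30 CPM in KO 1 to 4, against 9.58, 10.6, 14.97 and 11.7 CPM in CTR 1 to 4. KO 3 came close to CTR 1 without reaching it, and the log2 fold change of -0.68 (SE 0.17, edgeR adjusted p = 0.0182) was the smallest of the 8. Without KO 4 the Dlx2 call ended (log2 fold change -0.61, adjusted p = 0.0509). The antisense gene Dlx1as, which overlaps Dlx1, had 3 to 8 counts in KO and 1 to 3 counts in CTR, against 34 to 70 counts of Dlx1 in KO and 111 to 133 in CTR. The ratio of Dlx2 to Dlx1 was 2.65 ± 0.804 in KO and 1.88 ± 0.338 in CTR (SD, n = 4 each), and only KO 3 and KO 4 were above the CTR range.

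Foxn1 (ENSMUSG00000002057.4, chr11:78357577-78386558) encodes the factor missing in nude mice, which acts in the shaft precursors and also in the first suprabasal cells of the epidermis. It had 47.1, 54.7, 94.5 and 72.7 CPM in KO 1 to 4, against 147, 151, 166 and 148 CPM in CTR 1 to 4. CTR libraries were close together and all KO libraries were far below them. The mean was 67.3 ± 21.1 CPM in KO and 153 ± 8.74 CPM in CTR (SD, n = 4 each), which is 2.28-fold lower (log2 fold change -1.19, SE 0.18, edgeR adjusted p = 0.00226).

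Foxq1 (ENSMUSG00000038415.9, chr13:31556134-31560976) encodes a factor of the hair medulla. It had 34.6, 38.1, 48.4 and 52.2 CPM in KO 1 to 4, against 96.8, 74.9, 106 and 87.4 CPM in CTR 1 to 4. The groups did not overlap, and its log2 fold change of -1.07 (SE 0.15) had the smallest adjusted p of the 10 genes (edgeR adjusted p = 0.00129). A530084C06Rik, an antisense gene that overlaps its exon, had 3.74 ± 0.574 CPM in KO and 4.42 ± 1.19 CPM in CTR (SD, n = 4 each; log2 fold change -0.24, edgeR adjusted p = 0.444).

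Foxe1 (ENSMUSG00000070990.2, chr4:46343609-46346412) lies downstream of hedgehog signals and helps follicles to grow in the right direction. It had 4.51, 6.17, 7.01 and 3.28 CPM in KO 1 to 4, against 6.71, 10.5, 9.71 and 9.93 CPM in CTR 1 to 4. KO 3 was above CTR 1, so the groups overlapped. The log2 fold change was -0.81 (SE 0.23, edgeR adjusted p = 0.0308). This call ended without KO 1, KO 4, CTR 2, CTR 3 or CTR 4, at adjusted p-values of 0.064, 0.0595, 0.0764, 0.0702 and 0.0669 and log2 fold changes of -0.74, -0.64, -0.74, -0.79 and -0.78. The antisense gene Gm12446 overlaps Foxe1 and was lower in KO too (0.641 ± 0.157 CPM in KO and 1.33 ± 0.0942 CPM in CTR, SD, n = 4 each; edgeR adjusted p = 0.0108). The sources used here do not give the strand setting of the counting, so reads of such overlapping pairs may not be separated. Gm12446 had 9 to 17 counts in KO and 23 to 29 in CTR, where Foxe1 had 62 to 140 counts in KO and 131 to 219 in CTR.

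Hr and Vdr, partners whose loss halts the later hair cycles of mice, did not pass the threshold. Hr (ENSMUSG00000022096.14, chr14:70552212-70573548) had 708, 733, 851 and 681 CPM in KO 1 to 4, against 772, 753, 769 and 757 CPM in CTR 1 to 4. KO libraries lay on both sides of the CTR libraries, and the log2 fold change was -0.04 with a 95% interval of -0.22 to 0.15 (edgeR adjusted p = 0.773). Vdr (ENSMUSG00000022479.15, chr15:97854425-97910630) had 234, 257, 259 and 209 CPM in KO 1 to 4, against 220, 259.6, 222 and 203 CPM in CTR 1 to 4. The groups overlapped along most of their range, and the log2 fold change was 0.08 with a 95% interval of -0.13 to 0.30 (edgeR adjusted p = 0.564). The intervals of these 2 genes did not reach the estimate of any of the other 8.

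**Figure D2:**
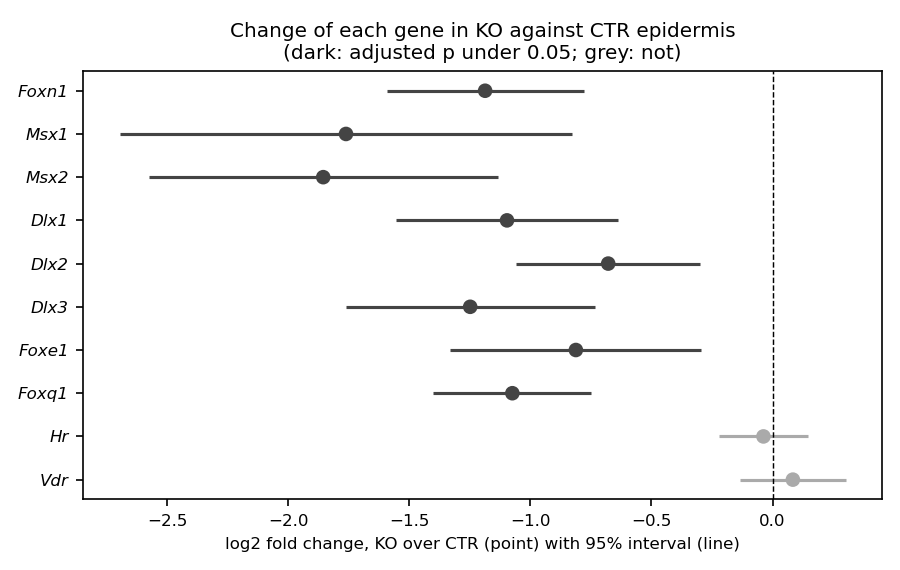
Log2 fold change of each gene, KO over CTR, with its 95% interval from edgeR's quasi-likelihood fit to 4 KO and 4 CTR libraries. Values run between -1.86 for Msx2 and -0.68 for Dlx2 in the 8 genes that fell, and the intervals of Hr and Vdr include 0.

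In all, 8 of the 10 genes fell and 0 rose in edgeR's test, where 23.7% of all tested genes changed and 12.2% fell. The 10 genes were chosen with earlier results of these data known, so these shares are a description and not a test of the set. At an unadjusted p under 0.05, and with DESeq2 at an adjusted p under 0.05, the counts were also 8 lower and 0 higher. KO and CTR libraries did not overlap in 7 of the 10, where this was so for 26.2% of all tested genes. All 7 were lower in KO, as were 13.3% of all tested genes. The median log2 fold change was -1.09 over the 10 genes and 0.00 over all tested genes. When edgeR's fit also held the Xist level of each library, 0 of the 10 genes and 77 of all tested genes passed the threshold, and 4 of the 10 had an unadjusted p under 0.05, 3 of them lower and 1 higher. The log2 fold changes were then -1.07 for Foxq1, -0.99 for Dlx1, -0.69 for Foxn1, -0.76 for Msx2, -0.40 for Msx1, -0.37 for Dlx3, -0.31 for Dlx2 and -0.05 for Foxe1. Xist stood at 330, 436, 574 and 337 CPM in KO 1 to 4, against 706, 994, 819 and 647 CPM in CTR 1 to 4, so every KO library was below every CTR library for this gene as well. Its part in the result was not tested.

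Levels of different genes compare only per length, as reads per kilobase of exon and per normalised library size (RPKM). In KO the order was Hr (107 ± 10.8 RPKM), Vdr (42.4 ± 4.14), Dlx3 (27.2 ± 9.33), Foxn1 (20.9 ± 6.56), Foxq1 (8.95 ± 1.72), Msx2 (5.63 ± 2.72), Dlx2 (2.55 ± 0.458), Foxe1 (1.87 ± 0.596), Msx1 (0.694 ± 0.412) and Dlx1 (0.540 ± 0.147 RPKM; SD, n = 4). In CTR it was Hr (110 ± 1.29 RPKM), Dlx3 (64.7 ± 11.7), Foxn1 (47.7 ± 2.72), Vdr (40.0 ± 4.22), Msx2 (20.4 ± 3.99), Foxq1 (18.9 ± 2.78), Dlx2 (4.10 ± 0.820), Foxe1 (3.29 ± 0.610), Msx1 (2.37 ± 0.794) and Dlx1 (1.16 ± 0.126 RPKM; SD, n = 4). Vdr thus came after Hr alone in KO, and after Hr, Dlx3 and Foxn1 in CTR. In KO the ranges of neighbours overlapped except between Hr and Vdr, between Foxn1 and Foxq1 and between Foxe1 and Msx1. In CTR the ranges of neighbours in that order overlapped except between Hr and Dlx3, between Vdr and Msx2 and between Foxq1 and Dlx2. With the longest transcript as the length, Vdr (51.8 RPKM) was above Foxn1 (47.7 RPKM) and Msx1 (3.79 RPKM) above Foxe1 (3.29 RPKM) in CTR, so the order within those pairs is not settled.

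**Figure D3:**
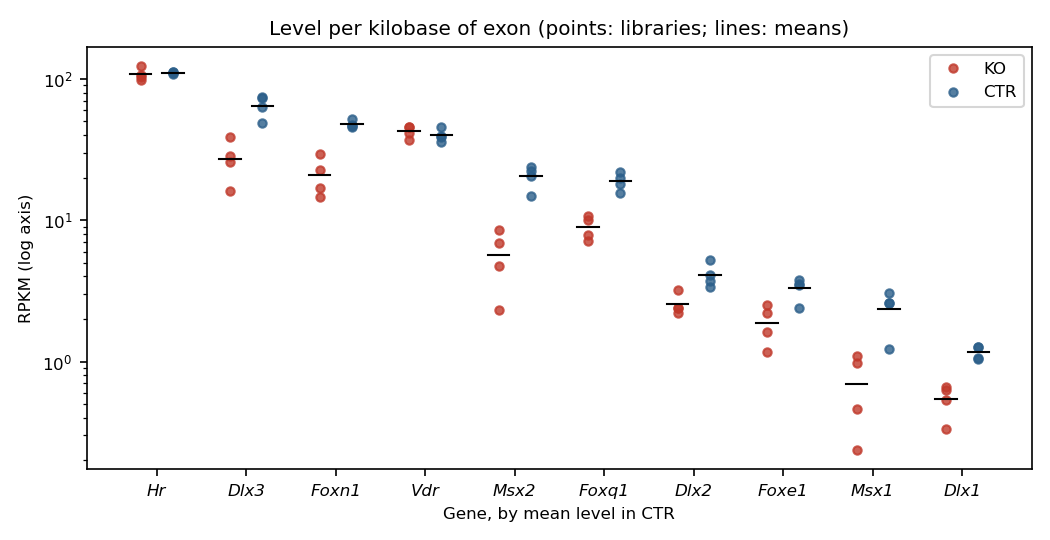
RPKM of the 10 genes on a log axis, ordered by mean level in CTR. Points are libraries, KO left and CTR right of each gene name, and lines are means of 4. Hr is highest in both groups, at 107 RPKM in KO and 110 RPKM in CTR, and Dlx1 lowest, at 0.540 RPKM in KO and 1.16 RPKM in CTR.

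Genes expressed by the cells in which these factors act were also lower in KO. Of 11 inner root sheath markers, 8 fell and 1 rose, where 12.2% of all tested genes fell and 11.5% rose. Their summed level was 699 to 3612 CPM in KO and 5060 to 9446 CPM in CTR. The summed level of the hair shaft keratins without Krt36 and Krt84 was 112, 891, 1449 and 236 CPM in KO 1 to 4, against 2849, 5371, 5344 and 3673 CPM in CTR 1 to 4. Krt36 and Krt84, hard keratins that tail scales express as well, differed from that pattern. They summed to 12324, 23551, 40786 and 52931 CPM in KO 1 to 4, against 49308, 36520, 52409 and 47741 CPM in CTR 1 to 4, so KO 4 had the highest level of all libraries for these and the second lowest for the other shaft keratins. In bulk RNA, fewer matrix and shaft cells and less RNA of these genes per cell cannot be told apart. Of 10 proliferation markers 0 passed the threshold in edgeR's test and 1 with DESeq2, and 2 had an unadjusted p under 0.05 in edgeR's test. Of the 12 markers of dermal fibroblasts and papilla, 7 could be tested, with Vim higher and Vcan lower in KO, and a summed level of 84.5 to 114 CPM in KO and 68.1 to 94.0 CPM in CTR. The dermal markers Lum, Pdgfra, Sox2, Crabp1 and Twist1 were too low to test. Markers of other cells moved as well, to be read beside the 11.5% of all tested genes that rose and the 12.2% that fell. Of 12 immune markers 7 could be tested, and 5 of these were higher (summed level of the 12, 132 to 188 CPM in KO and 68.3 to 108 CPM in CTR). Melanocyte markers were higher in 4 of 8 with 1 lower, and sebaceous gland markers in 2 of 8. Suprabasal markers were higher in 4 of 8 with 1 lower (summed level 60609 to 76200 CPM in KO and 34587 to 38582 CPM in CTR). Bulge and outer root sheath markers were higher in 3 of 8 (Krt16, Krt79 and Postn) with 2 lower (Fgf18 and Lgr6). Cd34, Lgr5 and Krt75 of that list did not pass. Of 3 testable endothelium, muscle and nerve markers 0 passed, at an unadjusted p under 0.05 too. The part of these in the fall of the 8 factors was not tested.

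Libraries within a group did not rank alike for all of the genes. Msx1, Msx2 and Dlx3 were lowest in KO 1, then KO 4, then KO 2, and highest in KO 3, which was also the order of the hair shaft keratins without Krt36 and Krt84. Among CTR libraries Dlx3 shared the order of those keratins, but Msx1 and Msx2 did not. Foxq1 was lowest in KO 1, then KO 2, KO 3 and KO 4, and lowest in CTR 2, then CTR 4, CTR 1 and CTR 3, which is the order of the Krt36 and Krt84 sum in both groups. Foxn1 followed neither order, with KO 1 lowest, then KO 2, KO 4 and KO 3. Dlx1 had its lowest value in KO 4 and its highest KO value in KO 2, an order that neither keratin group showed among KO libraries. Among CTR libraries Dlx1 did share the order of the Krt36 and Krt84 sum. Sox21, a further factor named after its values were seen, shared the order of that sum in both groups, as Foxq1 did. As a distance, the root mean square difference of log2 levels centred within each group was 0.20 between Msx1 and the inner root sheath sum and 0.26 between Msx2 and that sum, where the spread of Msx1 and Msx2 themselves was 0.72 and 0.54. To the hair shaft keratins without Krt36 and Krt84 the difference was 0.48 for Msx1 and 0.58 for Msx2, so that of Msx2 was more than its own spread. For Foxq1 the difference was 0.72 to the inner root sheath sum and 0.41 to the Krt36 and Krt84 sum, both more than its own spread of 0.22. The inner root sheath sum is mixed, since it holds Tgm3, a gene that rose in KO, and Trps1, which did not pass the threshold. Tgm3 had 398, 389, 486 and 353 CPM in KO 1 to 4, where the whole sum had 699, 2825, 3612 and 1130 CPM. Distances to that sum are therefore not distances to the sheath keratins alone. Each of these distances is over 8 libraries that all genes share.

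**Figure D4:**
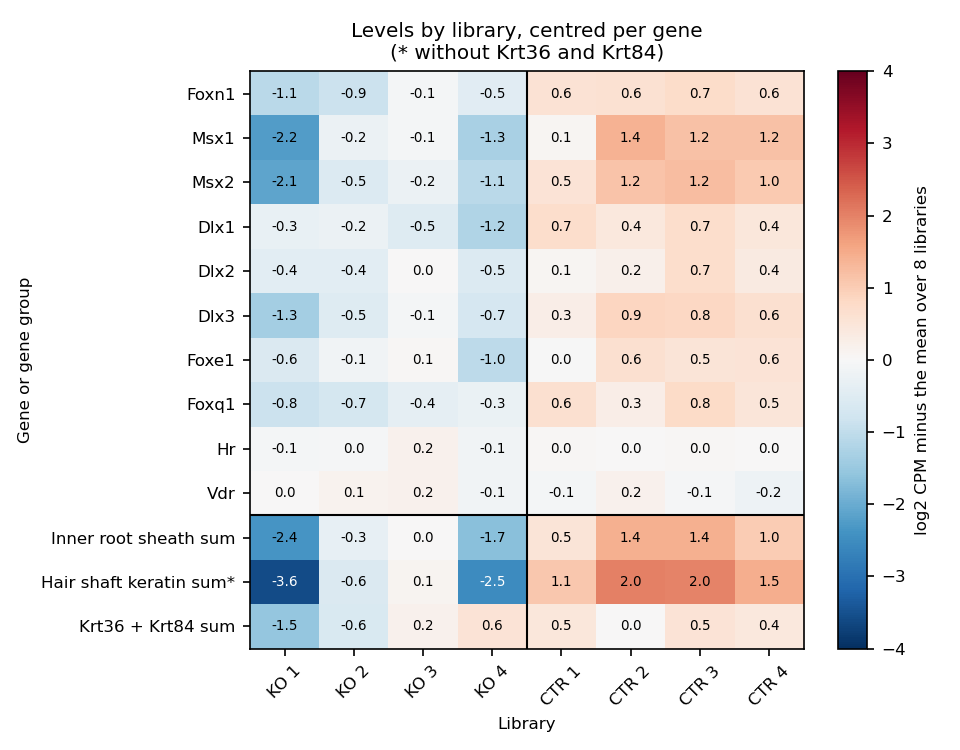
Log2 CPM per library, minus the mean of each gene over the 8 libraries, for the 10 genes and 3 summed gene groups, with KO libraries left of CTR libraries. Msx1 and Msx2 are lowest in KO 1 and next in KO 4, like the inner root sheath and hair shaft sums, while Foxq1 is least reduced in KO 4, where the Krt36 and Krt84 sum is at its highest.

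Whether the factors fell as far as the hair genes was tested by counting each gene per count of a hair gene group. Against all 12 hair shaft keratins in the table, 0 of the 10 genes were higher and 0 lower in KO at an adjusted p under 0.05 (edgeR), where 6.36% of all tested genes were higher and 0.972% lower. At an unadjusted p under 0.05, Vdr was higher and Msx2 lower, and without KO 4 there were 2 genes higher at an adjusted p under 0.05. Krt36 and Krt84 held 94.1% of the summed counts of that list. A scaling to the other 10 shaft keratins was added after the data were seen. With it 97.9% of all tested genes were relatively higher in KO, so such a call says little about the 10 genes in particular. Of the 10 genes, 8 were relatively higher. For Hr and Vdr this goes with no detectable change of their own, and for the others it means a smaller reduction than that of those keratins. The exceptions were Msx1 (relative log2 fold change 1.404, 95% interval -0.40 to 3.21, edgeR adjusted p = 0.129) and Msx2 (1.48, 95% interval -0.36 to 3.32, edgeR adjusted p = 0.117). Foxn1 was relatively higher by 2.498 on the log2 scale (95% interval 0.61 to 4.38, edgeR adjusted p = 0.00981).

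Against the inner root sheath genes, 4 of the 10 genes were relatively higher in KO, namely Hr, Vdr, Dlx2 and Foxe1, where 95.2% of all tested genes were. The relative log2 fold changes of these 4 were 2.33, 2.47, 1.69 and 1.45 (edgeR adjusted p = 0.00104, 0.000649, 0.0118 and 0.0293). The other 6 did not differ detectably from the fall of the inner root sheath sum. That sum included Tgm3, which rose in KO (log2 fold change 0.47, edgeR adjusted p = 0.0120). Tgm3 held 398 of the 699 CPM of the sum in KO 1 and 270 of the 5060 CPM in CTR 1. Trps1, a transcription factor gene in the sum that did not pass (log2 fold change -0.47, edgeR adjusted p = 0.110), held 92.4 CPM in KO 1 and 105 CPM in CTR 1. The sum is thus not a measure of sheath keratins alone, and a scaling without Tgm3 and Trps1 was not run. Msx2 had the estimate nearest to 0, at 0.20 with a 95% interval of -1.07 to 1.47, followed by Msx1 at 0.21 with an interval of -1.07 to 1.49. Intervals of this width include a fall of Msx2 larger and smaller than that of the sum.

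**Figure D5:**
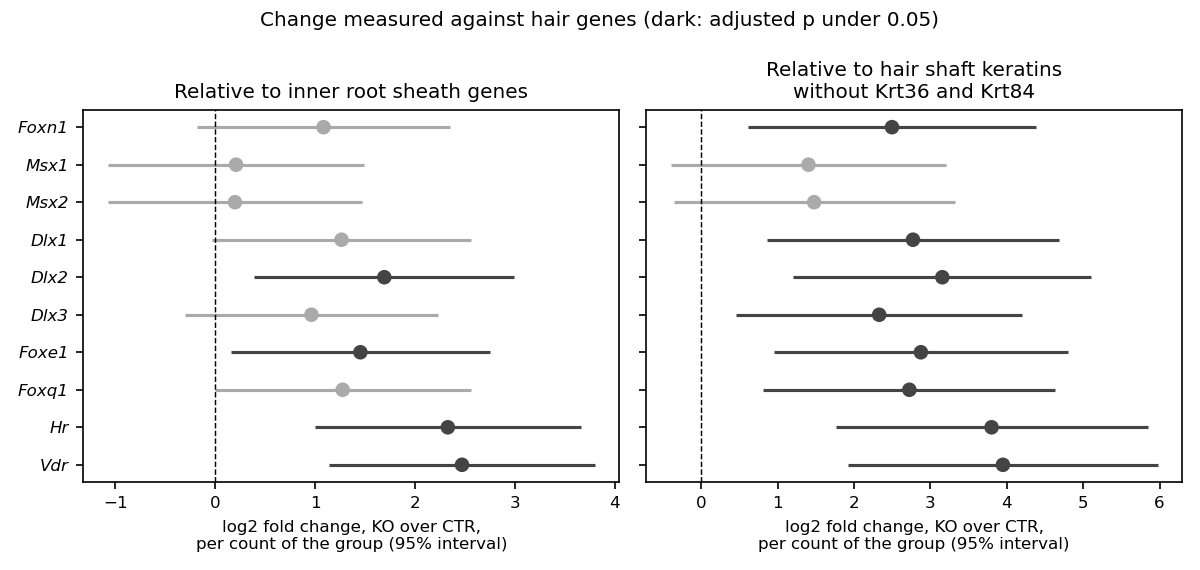
Log2 fold change of each gene, KO over CTR, per summed count of the inner root sheath genes (left) or of 10 hair shaft keratins (right), with 95% intervals over 4 KO and 4 CTR libraries. A value above 0 means a smaller reduction than that of the hair genes, or no reduction. Msx1 and Msx2 lie nearest to 0 in both panels, and Hr and Vdr farthest from it.

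Other transcription factors of matrix and shaft fell in part. Of 30 listed, 28 were tested, of which 7 fell and 1 rose in edgeR's test, where 12.2% of all tested genes fell and 11.5% rose. At an unadjusted p under 0.05 the counts were 14 lower and 1 higher, and with DESeq2 11 lower and 1 higher. The median log2 fold change was -0.28 against 0.00 over all tested genes. Lef1, the DNA-binding partner of beta-catenin in the hair precortex, had 2.94, 9.56, 10.2 and 4.34 CPM in KO 1 to 4, against 18.1, 28.1, 33.1 and 29.2 CPM in CTR 1 to 4 (log2 fold change -1.999, SE 0.35, edgeR adjusted p = 0.00395). Its KO libraries kept the same order as those of Msx1, Msx2 and Dlx3. Hoxc13, a direct regulator of hair keratin genes, had 48.5, 72.8, 103 and 77.1 CPM in KO 1 to 4, against 198, 174, 199 and 159 CPM in CTR 1 to 4 (log2 fold change -1.28, SE 0.19, edgeR adjusted p = 0.00182). Dlx4, which neighbours Dlx3, fell by 1.46 on the log2 scale (SE 0.22, edgeR adjusted p = 0.00184). Cux1, a homeodomain factor of the inner root sheath, had a log2 fold change of -0.74 (edgeR adjusted p = 0.0265), a call that ended without KO 2, KO 4, CTR 1, CTR 2 or CTR 3 (adjusted p = 0.0521 to 0.0648). The last pair of the Dlx family, named after their values were seen, did not pass the threshold: Dlx5 had 23.2 ± 2.003 CPM in KO and 27.7 ± 1.71 CPM in CTR (edgeR adjusted p = 0.0585, and 0.0391 with neighbouring mouse identifiers as blocks), and Dlx6 had 1.13 ± 0.407 CPM in KO and 1.54 ± 0.487 CPM in CTR (adjusted p = 0.351; SD, n = 4 each).

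Genes of signals that act upstream of the factors were counted next, where 12.2% of all tested genes fell. Of 18 tested genes of BMP signalling 9 fell and 0 rose in edgeR's test (10 and 0 at an unadjusted p under 0.05, 8 and 0 with DESeq2), with a median log2 fold change of -0.33. Bmp4, a ligand made around the matrix, had 4.90 ± 2.25 CPM in KO and 11.7 ± 2.68 CPM in CTR (SD, n = 4 each; log2 fold change -1.25, edgeR adjusted p = 0.0152). Bambi, a pseudoreceptor that dampens BMP and activin signals, fell by 1.54 on the log2 scale (edgeR adjusted p = 0.00312), and the ligand gene Bmp8a by 2.55 (adjusted p = 0.00723). Of 14 tested Wnt genes 6 fell and 0 rose, by each of those 3 counts, with a median log2 fold change of -0.44. Among them Nkd1 and Nkd2, inhibitors that Wnt signals induce, fell by 1.63 and 2.21 on the log2 scale (edgeR adjusted p = 0.00223 and 0.00771), and the ligand gene Wnt11 fell by 1.08 (adjusted p = 0.0134). Axin2, Notum and Lgr5 of the same list, named after their values were seen, did not pass. Their log2 fold changes were -0.16, -0.46 and -0.15 (edgeR adjusted p = 0.199, 0.159 and 0.572). Of 9 hedgehog genes 2 fell and 0 rose (4 and 1 at an unadjusted p under 0.05, 3 and 0 with DESeq2), with a median log2 fold change of -0.34. These were the hedgehog-binding antagonist gene Hhip (log2 fold change -4.51, edgeR adjusted p = 0.000271) and the receptor gene Ptch1 (-0.60, adjusted p = 0.0258). The other 7 did not pass, among them, named after their values were seen, the ligand gene Shh (-1.29, edgeR adjusted p = 0.0772) and Gli1, a transcriptional readout of the pathway (-0.26, adjusted p = 0.49). The calls of Grem1 (-1.08), Wnt5a (-0.88) and Ptch1 each ended when 1 of several libraries was left out, at adjusted p-values of up to 0.128, 0.0722 and 0.0702. That of Grem1 also ended with size factors of DESeq2, upper-quartile factors, library totals, a stricter filter, the robust fit and DESeq2 (adjusted p = 0.0501 to 0.076).

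Of 13 tested genes of vitamin D receptor partners and targets 3 fell and 1 rose, where 12.2% of all tested genes fell and 11.5% rose, with a median log2 fold change of -0.17. Ncor1 and Ncoa1, a corepressor and a coactivator of nuclear receptors, had log2 fold changes of -0.37 and -0.34, calls that ended without any 1 of 7 libraries. The histone deacetylase genes Hdac1 and Hdac3 had log2 fold changes of -0.48 and 0.35 (edgeR adjusted p = 0.0221 and 0.0154), and that of Hdac1 ended without KO 4, CTR 2 or CTR 3 (adjusted p = 0.0529 to 0.0617). Sostdc1, the gene of the Wnt inhibitor WISE that Hairless represses in mouse skin, had 155, 126, 99.0 and 76.6 CPM in KO 1 to 4, against 67.2, 76.9, 74.3 and 61.7 CPM in CTR 1 to 4. Only KO 4 lay within the CTR range, and the log2 fold change was 0.70 (SE 0.18, edgeR adjusted p = 0.0212). Without CTR 1 or CTR 4 that call ended (adjusted p = 0.0563 and 0.0553). Dkkl1, a further gene that Hairless represses, had 79.5 ± 13.0 CPM in KO and 61.2 ± 9.25 CPM in CTR (SD, n = 4 each; log2 fold change 0.38, edgeR adjusted p = 0.0647). Of these 2 genes, 2 were higher at an unadjusted p under 0.05, and 2 with DESeq2 at an adjusted p under 0.05.

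For each gene other than Msx1, the 3 genes whose log2 level followed it most closely over the 8 libraries were found by the root mean square difference of centred profiles, among named genes whose mean was 1 CPM or more. Foxn1 was nearest to Dmpk (0.11), Sox6 (0.12) and Hoxc13 (0.14). Msx2 was nearest to Srms (0.14), Nrxn2 (0.14) and Myb (0.15). Dlx3 was nearest to Rhpn2 (0.10), Capn12 (0.13) and Sema7a (0.14), Dlx2 to Lurap1l (0.09), Aadacl2 (0.11) and Hspb8 (0.11), and Dlx1 to Foxo6 (0.18), Patz1 (0.20) and Iqgap2 (0.20). Foxq1 was nearest to Kazald1 (0.12), Dmpk (0.13) and Ing4 (0.14), so that Dmpk stood near both Foxq1 and Foxn1. Foxe1 was nearest to Repin1 (0.11), Arhgef17 (0.12) and Tm4sf1 (0.12). Near Hr were Lrrfip1 (0.03), Kansl1 (0.03) and Megf9 (0.03), and near Vdr were Cfap43 (0.06), Cask (0.06) and Kat2b (0.06). With profiles centred within each group, 0 of the 3 were kept for Foxn1, Dlx1, Dlx2, Foxq1 and Vdr.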

How the data were processed

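The deposited values are raw read counts per gene, with no normalization, as the whole numbers and unequal library sums show. Per the labels' protocols, epidermis was peeled off after 5 h in cold dispase (4 °C, 10 mg/ml), and 1 microgram of RNA per mouse went into stranded poly-A libraries read as single 75 bp reads. Per the submitters' processing notes, tools included STAR 2.4.1d, featureCounts 1.4.6 and edgeR 3.8.6 with build GRCm38. Annotation release, strand setting and handling of multiply matching reads are not given in the sources used here.

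Symbols, positions and exon lengths came from GENCODE M21 (46488 of 46983 identifiers matched). Counts were tested with edgeR 4.0.16 (R 4.3.3): trimmed mean of M values, filterByExpr defaults, two-sided quasi-likelihood test with group as sole term, fitted to the 8 libraries, with Benjamini-Hochberg adjustment over 15638 genes and a threshold of 0.05. Standard errors are the log2 fold change over the square root of F. The fits per hair gene count used the group's summed counts as library size. DESeq2 1.42.0, other scalings, filters, left-out libraries and an Xist term were alternatives. The procedure was tested on simulated data. Libraries of the same group all differed from one another beyond sampling noise (chi-square test of counts). Nothing in the labels says whether mice shared a litter or were processed together, and p-values measure the spread between these mice. Replicate numbers follow accession order. The mouse identifiers form 4 neighbouring sets of 1 KO and 1 CTR mouse, which the labels do not call pairs, and a fit with these as blocks was added after the data were seen. The genes and lists were chosen with earlier results of these data known. The 10 genes were all named. From each list the 4 changed genes of largest log2 fold change (mean of 1 CPM or more) could be named, filled up to 2 with the most abundant. Of these, those of the signalling and factor lists and some markers are given. Dlx5, Dlx6, Shh, Gli1, Krt36, Krt84, Tgm3, Cd34, Lgr5, Lgr6, Krt75, Xist and the untestable markers were named after their values were seen. So were Axin2, Notum, Trps1, Sox21, Krt5, Krt14 and Lamb3. Genes most like each of the 10 were found by root mean square difference of log2 CPM with a prior count of 0.5. Those of Msx1 are not reported here. Krt85 and Tp63 of the lists had no match by symbol and were not analysed here. Floors cover counting error only.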

Additional observations from a re-analysis of the deposited data

Results flagged for a closer look

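None of the 20 groups of 4 libraries of the 10 genes held a library far from the other 3. Among all 132 groups of 66 named or listed genes, 5 did, where chance flags about 1 in 20. Krt16 had 1116 CPM in KO 3, against 807 to 843 CPM in the other KO libraries. Krt79 had 1167 CPM in CTR 1, against 1558 to 1633 CPM in the other CTR libraries. Scd3 had 240.05 CPM in CTR 3, against 90.7 to 115 CPM in the other CTR libraries. Acta2 had 31.9 CPM in KO 4, against 2.204 to 4.82 CPM in the other KO libraries, and 17.4 CPM in CTR 2, against 3.23 to 4.89 CPM in the other CTR libraries. Krt16 and Krt79 are from the bulge and outer root sheath list, Scd3 is a sebaceous gland marker and Acta2 a muscle marker. None is among the 10 factors.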

How the results depend on the processing

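The count of 8 lower and 0 higher genes of the 10 was the same with DESeq2 size factors, upper-quartile factors, library totals, no filter, a stricter filter, the DESeq2 Wald test, the robust fit and without KO 1 and KO 3 together (added after the data were seen). Leaving out 1 library at a time gave 6 to 8 lower, 0 higher and 2589 to 4370 changed genes among all tested. With Xist as a further term 0 genes of the 10 were lower and 77 of all tested genes changed, and the cause was not tested. Apart from that term, log2 fold changes ranged between -2.13 and -1.59 for Msx2, -2.07 and -1.47 for Msx1, -1.40 and -1.04 for Foxn1, -1.47 and -1.06 for Dlx3, and -1.17 and -0.98 for Foxq1. Per hair shaft keratin count, 4 genes were relatively higher with inner root sheath genes, 8 without Krt36 and Krt84 and 0 to 2 with 1 library left out, where the 2 came without KO 4.

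Signs turned in values that did not pass the threshold under the alternative. With the Xist term the log2 fold changes of Hr, Cux1, Bmp4, Wnt5a, Ptch1, Ncor1, Ncoa1, Dkkl1 and Dlx6 were 0.17, 0.0495, 0.0535, 0.16, 0.0253, 0.0514, 0.0457, -0.0502 and 0.33. With 1 library left out, that of Hr ranged between -0.108 and 0.00367 (without KO 4) and that of Ppp1r8 between -0.212 and 0.0476 (without KO 2), and that of Ppp1r8 was 0.0161 without KO 1 and KO 3. With a replicate block of neighbouring mouse identifiers (added after the data were seen), 8 genes of the 10 were lower, 0 higher and 4313 of all tested genes changed. Of the other genes refitted under the alternatives only the call of Dlx5 changed, to an adjusted p of 0.0391. Deviations from the group means correlated at 0.145 to 0.404 across genes within these sets, and each KO library correlated best with its own neighbour, a hint from the data and not from the labels. Genes with few counts, such as Msx1 at 14 counts in KO 1, are limited by depth.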
